A study of Mus musculus with 6 samples.

Results

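The 10 genes described here are Atf4, the stress-induced gene Ddit3, the further ATF4 targets Trib3, Asns and Chac1, and the enzymes Psat1, Phgdh, Psph, Shmt2 and Mthfd2 of serine and mitochondrial one-carbon metabolism. They were chosen by name, as the probe sets whose platform symbol is exactly 1 of these genes. All 10 had a probe set, 1 each, of 19938 genes with a probe set of their own. They were measured in double-positive (DP) thymocytes, the T cell precursors of the thymus that carry both CD4 and CD8. Wild-type (WT) C57BL/6 mice aged 3 weeks were compared with C57BL/6 mice of that age labelled LCK:Hdac3 KO, which are knockouts of the histone deacetylase gene Hdac3 in a strain named after the T-lineage gene Lck. Neither group was treated. The sources used here do not say which part of Hdac3 was deleted or how DP cells were isolated. There were 3 Affymetrix whole-transcript arrays for each genotype. RNA of 2 mice per genotype was pooled for what the design text calls 3 biological replicates. Which mice went into which array is not stated, so p-values measure only the spread between arrays, part of which may be technical. The comparison asks whether these stress and biosynthesis genes differ between DP cells labelled Hdac3 KO and WT.

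ATF4 is a transcription factor made when kinases of the integrated stress response phosphorylate the initiation factor eIF2, as happens with amino acid shortage, unfolded proteins in the endoplasmic reticulum (ER), double-stranded RNA or haem shortage. It raises genes for amino acid uptake and synthesis, tRNA charging and serine and one-carbon metabolism, and together with CHOP, the product of Ddit3, genes of stress-induced death. Because ATF4 is controlled largely at translation, the level of its mRNA is not a measure of the protein. The serine pathway makes serine from a glycolytic intermediate, and mitochondrial folate enzymes pass its carbon on to purine and thymidylate synthesis, on which dividing thymocytes depend.

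ATF4 binds with partners of the C/EBP family to a short element that joins parts of a C/EBP site and an ATF site. The letters TGATGNAA were searched on both strands in the RefSeq promoter windows of GRCm38.p6, each 250 bases before to 50 after a start of transcription. All 10 genes had a window, and the letters were found in those of Chac1, Asns and Trib3, which is 30% of the 10, against 4.51% of 27025 genes and 3.97% of 32851 windows. The 3 stretches are shown with the element in capitals, since they mark the genes of the set in which these letters lie near the start. The Chac1 stretch (chr2:119351023-119351082, + strand) lies before the start and the Asns stretch (chr6:7693210-7693269, - strand) ends just before it. The Trib3 stretch (chr2:152344028-152344057, - strand) lies after the start. In Chac1 and Trib3 the element reads on the strand opposite to the gene.
Chac1: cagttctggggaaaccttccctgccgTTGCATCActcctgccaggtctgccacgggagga
Asns: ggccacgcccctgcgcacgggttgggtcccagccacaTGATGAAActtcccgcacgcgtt
Trib3: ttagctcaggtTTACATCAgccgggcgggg
Among other genes of the stress response (a list given further on), 10 of 33 with a window held the letters, or 30.3%. Slc7a11, the cystine transporter, held them as a pair on opposite strands (chr3:50443646-50443705, - strand), and is shown because its transcript fell most of all the listed genes.
Slc7a11: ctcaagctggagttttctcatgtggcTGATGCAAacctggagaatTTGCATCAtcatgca
Of the 20 listed tRNA synthetases 12 had a window under the listed symbol, and 5 of these held the letters, or 41.7%. None of 22 other serine and one-carbon genes, 19 ER genes or 20 purine and methionine cycle genes with a window did. A match is a description of the sequence and does not show binding in these cells.

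Hdac3 itself had log2 values of 9.40, 9.42 and 9.44 in WT and of 8.28, 8.32 and 8.32 in KO, a difference of -1.12 (SE 0.08, limma adjusted p = 3.5e-04). This puts the KO signal at 46.2% of WT. Summed signal of 12 DP marker genes was 14.95 to 15.12 on the log2 scale in WT and 15.05 to 15.10 in KO, and Cd4, Cd8a and Rag1 were above 11.1 on every array, so the labelled cell type had its defining markers. Across the 28853 probe sets, interquartile ranges were wider in WT (3.29 to 3.49) than in KO (3.06 to 3.25). Of 14 neutrophil markers, all had a higher mean in KO, as did 53.1% of all probe sets, and none passed the test. These markers ranked from percentile 7.3 (Mmp8) to 43.0 (Mmp9) of mean signal. With all probe sets ranked by mean signal into 10 bins, the 5 dimmest bins had median differences of 0.02 to 0.16. The part of signal level was not tested. Summed signal of the neutrophil markers was 8.34 to 8.53 in WT, and 8.50, 10.11 and 8.55 on KO arrays 1 to 3, so KO array 2 stood apart. Summed signal of macrophage and dendritic cell markers (12 genes) was 8.50 to 8.72 in WT and 8.71 to 8.98 in KO. For 9 B cell markers it was 8.57 to 8.75 in WT and 8.61 to 8.71 in KO. For 10 markers of thymic epithelium and stroma it was 9.55 to 9.71 and 9.63 to 9.70, for 10 double-negative markers 9.55 to 9.92 and 9.75 to 10.17, for 9 single-positive markers 10.44 to 10.57 and 10.65 to 10.92, and for 5 erythroid markers 6.68 to 7.03 and 7.06 to 7.25. Sums follow their brightest genes: the mean log2 value of the single-positive markers was 6.55 to 6.86 in WT and 6.48 to 6.70 in KO. Markers that passed the test, named after their values were seen, were the interleukin receptor genes Il2ra (2.28) and Il7r (-1.19), Cd44 (-0.66) and Cd52 (0.54) of the double-negative and single-positive lists, Themis (0.43) and Cd1d1 (-0.65) of the DP list, Klf1 (0.44) of the erythroid and Epcam (-0.37) of the epithelial and stromal list. Their part in the differences of the 10 genes was not tested. The signal above which a probe set exceeds background is unknown.

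None of the 10 genes differed between the genotypes at an adjusted p under 0.05 (limma, Benjamini-Hochberg over 23410 probe sets), where 5.79% of all probe sets passed, 1.75% higher and 4.04% lower in KO. At an unadjusted p under 0.05 there was 1 of 10, Shmt2, or 10%, against 25.2% of all probe sets. Differences of the log2 values (KO minus WT) ran from -0.26 to 0.31 with a median of -0.10, where the median of all probe sets was 0.02. That background depended on scaling: with each array centred on its median, 197 probe sets were higher and 1863 lower, the median of all was -0.08, and the 10 genes still gave no call. The 95% intervals of all 10 lay inside a 2-fold change in either direction, and 8 lay inside a 1.5-fold change; those of Trib3 and Asns reached beyond it. These intervals are per gene and not adjusted for the number of genes. With whole populations of cells, a smaller share of cells that express a gene and less RNA per cell cannot be told apart.

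**Figure D1:**
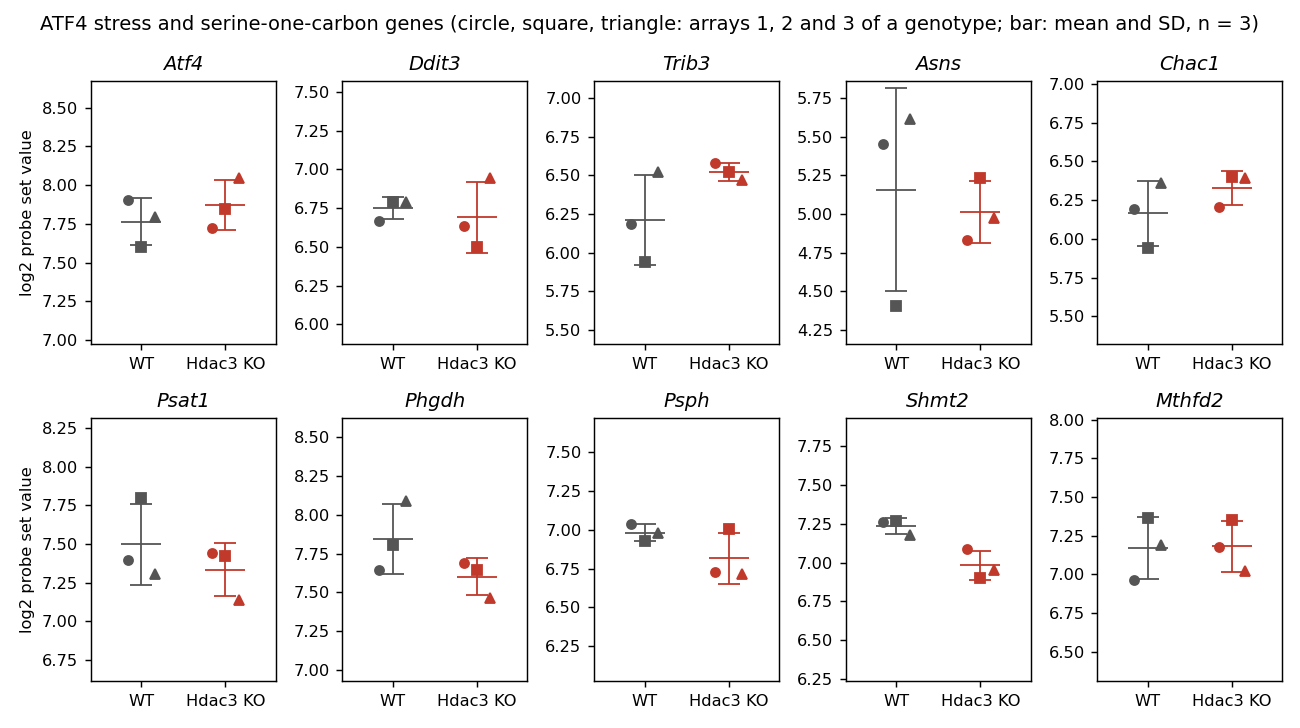
Log2 probe set values of the 10 genes on 3 WT (grey) and 3 Hdac3 KO (red) arrays, with the mean and SD (n = 3); every panel spans the same range of log2 units. The genotypes overlap for 9 genes, and for Shmt2 the 3 KO arrays lie below the 3 WT arrays.

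Atf4, the transcription factor that gives the set its name (chr15:80255184-80257545, GRCm38.p6, as for all genes here), had log2 values of 7.90, 7.60 and 7.79 in WT and 7.72, 7.84 and 8.05 in KO, given here and below in the order of arrays 1 to 3. The highest value was on a KO array and the lowest on a WT array, with the others interleaved. The WT mean was 7.76 ± 0.15 (SD, n = 3) and the KO mean 7.87 ± 0.16 (SD, n = 3), which differed by 0.11 (SE 0.12, 95% interval -0.16 to 0.37, limma adjusted p = 0.60).

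Ddit3 (chr10:127290793-127296291) encodes CHOP, a C/EBP family factor that ATF4 induces and that promotes death under prolonged ER stress. Its log2 values were 6.67, 6.79 and 6.79 in WT and 6.63, 6.50 and 6.94 in KO. The KO arrays held both the lowest and the highest value, and their SD of 0.23 compared with 0.07 in WT. The difference of -0.06 (SE 0.12, 95% interval -0.33 to 0.22) did not pass (limma adjusted p = 0.80).

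Trib3 (chr2:152337425-152344060) encodes a pseudokinase that binds AKT and ATF4 and is induced by both ATF4 and CHOP. It measured 6.18, 5.94 and 6.52 on the log2 scale in WT and 6.58, 6.52 and 6.47 in KO. The KO arrays lay close together near the top of the WT range, and WT array 3 reached their level. The difference was 0.31 (SE 0.14, 95% interval -0.0014 to 0.62, limma adjusted p = 0.20), the largest positive one of the 10. It passed only when WT array 3 was left out (0.46, limma adjusted p = 0.041), a fit in which 8.31% of all probe sets passed. Over all alternatives tried the adjusted p of Trib3 ran from 0.041 to 0.48.

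Asns (chr6:7675165-7693209) encodes asparagine synthetase, a classical target of the amino acid response. Its log2 values were 5.45, 4.41 and 5.61 in WT and 4.83, 5.23 and 4.97 in KO. All KO values fell between the low value of WT array 2 and the other WT values. With this spread (SD 0.65 in WT and 0.20 in KO), the difference of -0.15 had the widest interval of the 10 (SE 0.27, 95% interval -0.75 to 0.46, limma adjusted p = 0.76), which leaves the direction unresolved.

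Chac1 (chr2:119351242-119354326) encodes a glutathione-degrading enzyme downstream of ATF4 and CHOP. It measured 6.19, 5.94 and 6.36 on the log2 scale in WT and 6.20, 6.40 and 6.39 in KO. A pair of KO arrays lay just above the highest WT array and KO array 1 within the WT range. The difference was 0.17 (SE 0.12, 95% interval -0.11 to 0.44, limma adjusted p = 0.41).

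The synthesis of serine starts with Phgdh (chr3:98313171-98339969), which encodes the dehydrogenase that takes 3-phosphoglycerate out of glycolysis. Its log2 values were 7.64, 7.80 and 8.09 in WT and 7.69, 7.64 and 7.46 in KO. The lowest value was on KO array 3 and the highest on WT array 3, while WT array 1 and KO array 2 were level. The difference was -0.25 (SE 0.13, 95% interval -0.53 to 0.04, limma adjusted p = 0.25). A further probe set is annotated to Phgdh together with the predicted gene Gm6756, cannot be assigned to either, and had a difference of -0.02 (SE 0.11).

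Psat1 (chr19:15905123-15925059), the aminotransferase of the next step, had log2 values of 7.40, 7.79 and 7.31 in WT and 7.44, 7.42 and 7.14 in KO. WT array 2 was high and KO array 3 low, and the other arrays shared a narrow range. The difference was -0.16 (SE 0.14, 95% interval -0.48 to 0.16, limma adjusted p = 0.50). Psph (chr5:129765558-129787443), the phosphatase that releases serine, measured 7.04, 6.93 and 6.98 in WT and 6.73, 7.01 and 6.71 in KO. KO arrays 1 and 3 lay below every WT array and KO array 2 within the WT range, for a difference of -0.17 (SE 0.11, 95% interval -0.40 to 0.07, limma adjusted p = 0.35).

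Shmt2 (chr10:127517123-127522444) encodes the mitochondrial hydroxymethyltransferase that splits serine into glycine and a one-carbon unit. It was the gene of the set whose groups did not overlap, with log2 values of 7.26, 7.27 and 7.18 in WT and 7.09, 6.90 and 6.96 in KO. Among all probe sets the KO arrays lay below the WT arrays in 16.5% and above them in 13.5%. The means of 7.24 ± 0.05 and 6.98 ± 0.10 (SD, n = 3) differed by -0.26 (SE 0.09, 95% interval -0.46 to -0.05), which puts KO at 83.8% of WT. The unadjusted p was 0.021 and the limma adjusted p = 0.13.

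Mthfd2 (chr6:83305704-83326011) encodes the mitochondrial dehydrogenase and cyclohydrolase of the following folate steps, an enzyme of proliferating cells. Its log2 values of 6.96, 7.36 and 7.19 in WT and 7.18, 7.35 and 7.02 in KO covered nearly the same range. The difference of 0.01 was the smallest of the 10 (SE 0.13, 95% interval -0.27 to 0.30, limma adjusted p = 0.96).

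**Figure D2:**
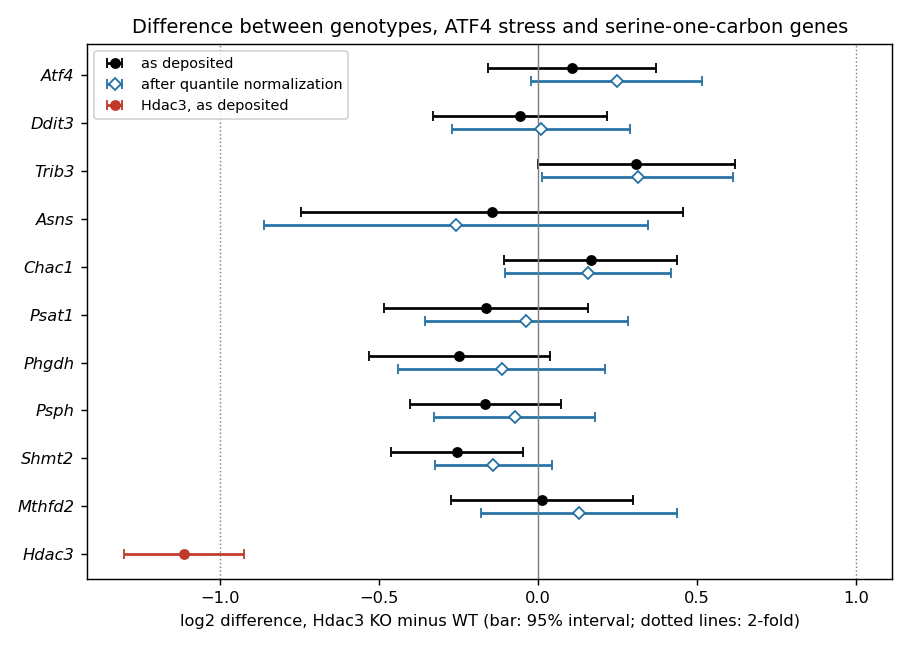
Log2 difference between Hdac3 KO and WT with its 95% interval for the 10 genes, from the deposited values (black) and after quantile normalization (blue), and for Hdac3 (red); dotted lines mark 2-fold. All intervals of the 10 genes stay inside the 2-fold lines, while the difference of Hdac3 is -1.12.

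By role, none of whose genes passed, the signs were as follows. Of Atf4, Ddit3, Trib3, Asns and Chac1, 3 had a positive and 2 a negative difference, with a median of 0.11, and of the 5 serine and one-carbon enzymes 1 was positive and 4 negative, with a median of -0.17. The difference between these medians was not tested. Negative differences were frequent at the signal level of most of these genes. When probe sets were ranked by mean signal into 10 bins, 7 of the 10 genes fell into the bins numbered 7 and 8 from the dimmest, where the median difference of all probe sets was -0.14 and -0.17. Measured from the median of its own bin, Shmt2 differed by -0.12, Phgdh by -0.08, Psph by -0.03, Psat1 by 0.0018 and Mthfd2 by 0.15. On that scale Atf4 differed by 0.27, Trib3 by 0.26, Chac1 by 0.11, Ddit3 by 0.08 and Asns by -0.29, the largest of the 10 in size. Asns was the dimmest of the 10, at percentile 37.0 of mean signal, and its difference had the largest SE (0.27). After quantile normalization the median over the 10 genes was -0.01 and that of all probe sets 0.0029. Shmt2 then differed by -0.14 (95% interval -0.33 to 0.04), Atf4 by 0.25 (95% interval -0.02 to 0.52) and Trib3 by 0.31 (95% interval 0.01 to 0.61). None of the 10 passed then either, where 4% of all probe sets did, 1.4% higher and 2.6% lower.

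Without KO array 2, on which neutrophil markers were high, none of the 10 genes passed, against 2.02% of all probe sets. Differences then ran from -0.27 to 0.31. Ddit3 and Mthfd2 changed sign, to 0.04 and -0.07, and 8 genes kept theirs. Over the 6 fits without 1 array, the difference ran from 0.02 to 0.18 for Atf4, from 0.17 to 0.46 for Trib3, from 0.05 to 0.26 for Chac1, from -0.26 to -0.016 for Psat1, from -0.35 to -0.13 for Phgdh, from -0.26 to -0.11 for Psph and from -0.31 to -0.22 for Shmt2. Trib3, Chac1 and Psat1 were nearest to 0 without WT array 2, Atf4 without KO array 3 and Phgdh without WT array 3. Asns, Ddit3 and Mthfd2 changed sign among these fits.

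For 6 of the 10 genes the larger of the within-genotype SDs exceeded the difference between genotypes, and WT array 2 often held an extreme value. This was noticed after the values were seen. The lowest values of Atf4, Trib3, Asns and Chac1 over all 6 arrays were on WT array 2, as were the highest of Psat1, Shmt2 and Mthfd2. For Shmt2 the lead was narrow, 7.269 against 7.265 on WT array 1. Of all probe sets, 17.1% were lowest and 16.2% highest on WT array 2. Asns lay 0.68 below its own mean over the 6 arrays there, Trib3 0.43, Chac1 0.31 and Atf4 0.22 below, while Psat1 lay 0.38 above. The array held the highest value of 16 of 21 cell cycle genes and of 14 of 18 genes of purine and thymidylate synthesis and the methionine cycle, against 16.2% of all probe sets. It also held the highest value of 10 of 18 tRNA synthetases. The cell cycle list had a median of 0.24 above its genes' own means on WT array 2 and of 0.21 below them on WT array 1, where 13 of 21 were lowest. The part of cell cycle activity in the spread of the 10 genes was not tested. On KO array 3 all 5 serine and one-carbon enzymes were below their own means. Psat1 lay 0.28 below, Phgdh 0.26, Psph 0.19, Shmt2 0.15 and Mthfd2 0.16. Atf4 and Ddit3 were highest of all 6 arrays there, 0.23 and 0.22 above their means. Of all probe sets, 13.4% were highest and 13.3% lowest on KO array 3, with a median deviation of -0.0042. All 5 enzymes fell into signal bins 7 and 8, where the median genotype difference of all probe sets was -0.14 and -0.17. The part of signal level in their deviations on KO array 3 was not tested.

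**Figure D3:**
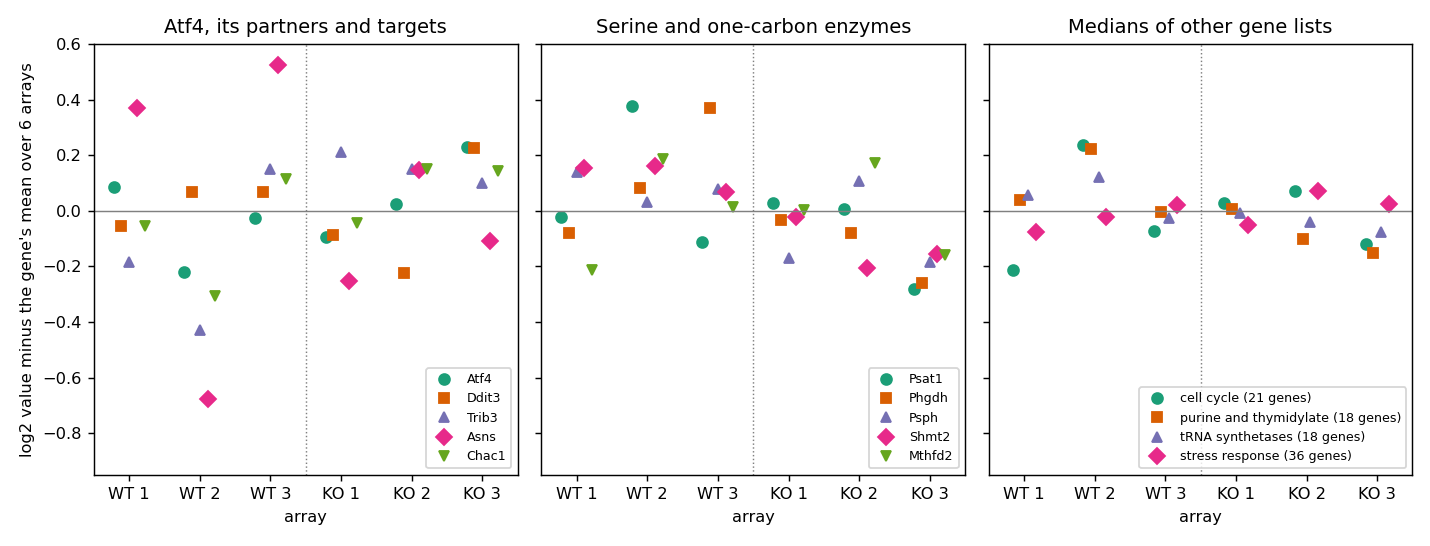
Deviation of each gene's log2 value from its own mean over 6 arrays, for Atf4, its partners and targets, for the serine and one-carbon enzymes, and as medians for 4 other gene lists. WT array 2 is low for Atf4, Trib3, Asns and Chac1 and high for Psat1 and for the cell cycle and purine lists.

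The wider pathway was followed in gene lists of textbook members, beside which the same background of 1.75% higher and 4.04% lower applies. Of 39 other genes of the integrated stress response and ATF4 programme, 36 had a probe set of their own; 4 rose, 3 fell and 29 did not pass, with a median difference of 0.04. At an unadjusted p under 0.05 there were 14, or 38.9%, against 25.2% of all probe sets. The falls were those of Slc7a11, the cystine transporter (-2.77, SE 0.30, limma adjusted p = 0.0017), its heavy chain partner Slc3a2 (-0.49, SE 0.11) and Eif2ak2, the eIF2 kinase PKR that senses double-stranded RNA (-0.76, SE 0.16, limma adjusted p = 0.028). The rises were those of Ppp1r15a, which encodes the phosphatase subunit GADD34 that reverses eIF2 phosphorylation (0.61, SE 0.15, limma adjusted p = 0.043), the secreted glycoprotein gene Stc2 (0.52, SE 0.13), the neutral amino acid transporter Slc1a4 (0.40, SE 0.10) and the eIF4E kinase Mknk2 (0.39, SE 0.09). Slc3a2, Slc1a4 and Mknk2 were named after their values were seen. In the fits that left out 1 array, the share of all probe sets called moved from the 5.79% of the main fit. It was 2.21%, 2.16% and 8.31% without WT array 1, 2 or 3. Without KO array 1, 2 or 3 it was 3.53%, 2.02% and 2.09%. The call of Slc7a11 held in each of these 6 fits (-3.14 to -2.45). Eif2ak2 (-0.94 to -0.62, limma adjusted p up to 0.095), Ppp1r15a (0.47 to 0.69, up to 0.13) and Mknk2 (0.35 to 0.43, up to 0.13) were called only without WT array 3, and Slc3a2 (-0.60 to -0.41, up to 0.13) only without WT array 2. Stc2 (0.44 to 0.64, up to 0.15) was called only without WT array 3 or KO array 1, and Slc1a4 (0.36 to 0.46, up to 0.14) in none of these fits. The list had 3 calls after quantile normalization, where Ppp1r15a did not pass (0.64, limma adjusted p = 0.059; 0.024 to 0.13 over its alternatives), and between 1 and 7 when 1 array was left out: 1 without WT array 1, KO array 2 or KO array 3, 2 without WT array 2 or KO array 1, and 7 without WT array 3.

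The aminoacyl-tRNA synthetases, which charge tRNAs in the cytosol and are ATF4 targets in large part, gave no call among 18 measured (limma; 1 at an unadjusted p under 0.05), with a median of -0.10 as deposited and 0.03 after quantile normalization. The smallest p-values were those of Wars (-0.34, SE 0.10, limma adjusted p = 0.082; 0.044 to 0.55 over its alternatives) and Vars (-0.23, SE 0.11, limma adjusted p = 0.20). Of 22 ER chaperones and genes of the unfolded protein response outside the ATF4 arm, Atf6, a sensor of ER stress that is cleaved into a transcription factor, fell (-0.57, SE 0.14, limma adjusted p = 0.048) and 21 did not pass, with a median of -0.15, or -0.05 after quantile normalization. At an unadjusted p under 0.05 there were 5, or 22.7%. Atf6 was called in none of the 6 fits without 1 array (-0.67 to -0.43, with limma adjusted p reaching 0.15) and not after quantile normalization (-0.47, limma adjusted p = 0.10; 0.018 to 0.24 over its alternatives).

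Of 25 measured genes of serine, glycine and folate metabolism other than the 5 enzymes, Slc46a1, a proton-coupled folate transporter, rose (0.45, SE 0.10, limma adjusted p = 0.039) and 24 did not pass, with a median of -0.15. At an unadjusted p under 0.05 there were 15, or 60%, against 25.2% of all probe sets. The groups did not overlap for 14, with KO above WT in 6 and below in 8, against 13.5% and 16.5% of all probe sets. The 6 ranked from percentile 26.4 (Aldh1l2) to 59.0 (Ftcd) of mean signal, where the bin medians of all probe sets were 0.05 to 0.16. The 8 ranked from 23.8 (Gcsh) to 78.3 (Sfxn1), a range that includes bins 7 and 8 with medians of -0.14 and -0.17. The part of signal level in these counts was not tested. Slc46a1 was called only without WT array 3 or KO array 1 among the fits without 1 array (0.36 to 0.52, with limma adjusted p reaching 0.12), and not after quantile normalization (0.33). Of 18 measured genes of purine and thymidylate synthesis and the methionine cycle, some of them also in the folate list, Impdh1, an IMP dehydrogenase of guanine nucleotide synthesis, fell by 0.62 (SE 0.11, limma adjusted p = 0.017) and Pfas, an amidotransferase of purine synthesis, by 0.38 (SE 0.09, limma adjusted p = 0.041). For 16 genes no call was made. The median of the list was -0.13, or -0.08 after quantile normalization, and 6 genes, or 33.3%, were at an unadjusted p under 0.05. Impdh1 lost its call without WT array 1, WT array 2 or KO array 2 (-0.72 to -0.52 over the 6 fits, limma adjusted p up to 0.066), and Pfas kept it only without WT array 3 (-0.41 to -0.34, with limma adjusted p reaching 0.13) and lost it after quantile normalization (-0.24). The count for this list was 0 without WT array 1, WT array 2 or KO array 2, 1 without KO array 1 or 3 and 4 without WT array 3. Of all probe sets, 2.02% to 3.53% passed in these fits except without WT array 3, where 8.31% did.

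Among 20 measured transcription factors and chromatin regulators known to act on these genes, a list that holds Atf4 and Ddit3 too, 2 fell, none rose and 18 did not pass, with a median of -0.20. At an unadjusted p under 0.05 there were 9, or 45%. Myc, an activator of serine and nucleotide synthesis genes, had log2 values of 7.95, 7.91 and 7.76 in WT and 6.84, 6.18 and 6.81 in KO. All KO arrays were lower than all WT arrays, and the difference was -1.26 (SE 0.17, limma adjusted p = 0.0035), which puts KO at 41.6% of WT. The call held in each fit without 1 array (-1.38 to -1.05) and after quantile normalization. Mlxip, the glucose-sensing factor MondoA, fell by 0.37 (SE 0.09, limma adjusted p = 0.043), a call that held in none of the 6 fits without 1 array (-0.40 to -0.35, with limma adjusted p reaching 0.14) and not after quantile normalization (-0.23). Of 21 cell cycle genes none passed (limma; 1 at an unadjusted p under 0.05, Aurka), with a median of 0.04; the mitotic kinase gene Aurka had a difference of 0.33 (SE 0.12) and the mitotic activator Cdc20 of -0.30 (SE 0.14).

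**Figure D4:**
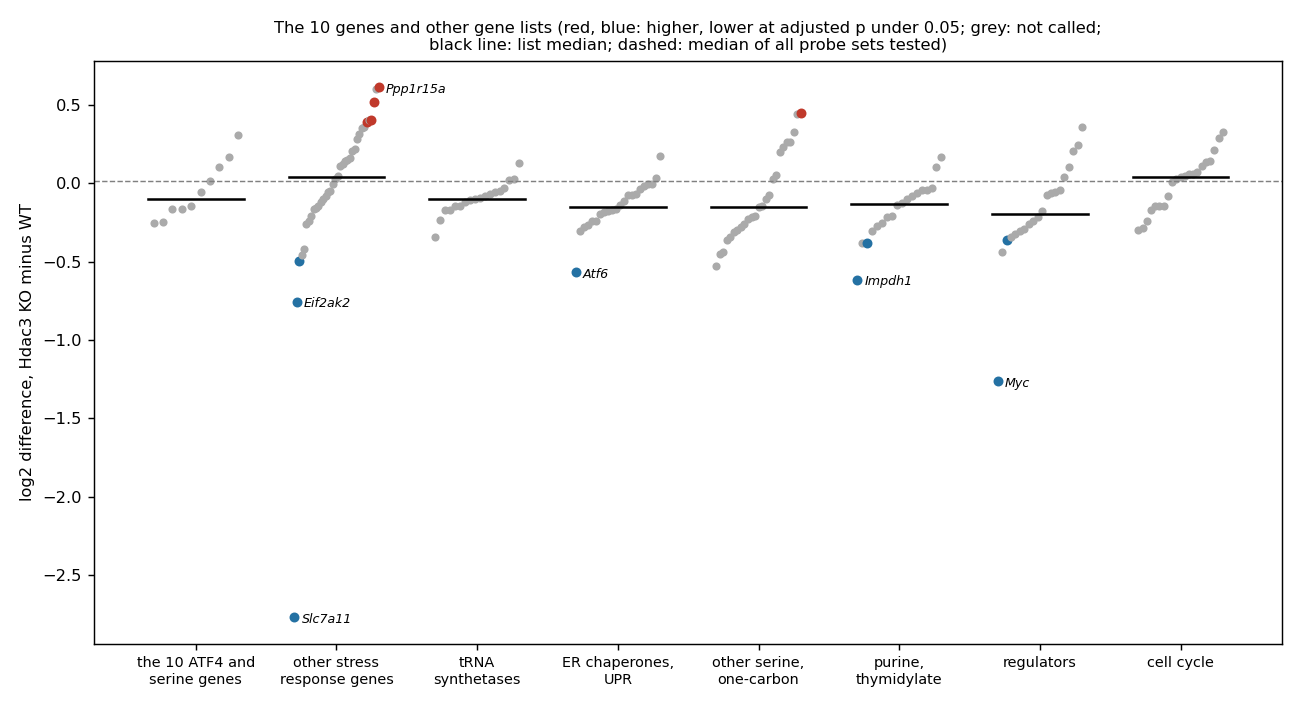
Log2 difference between Hdac3 KO and WT for the 10 genes and 7 other gene lists, 1 point per gene, with the list median (black) and the median of all probe sets tested (dashed). Calls at an adjusted p under 0.05 are red (higher) or blue (lower): the 10 genes have none, and Slc7a11 and Myc lie lowest.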

How the data were processed

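Gene expression was measured on 6 Affymetrix whole-transcript arrays, 3 per genotype, from column-purified total RNA labelled with a sense-target kit, per the labels' protocols. The authors deposited a log2 value per probe set and array; the log2 scale was read from their range, 1.94 to 13.98. How they corrected background, normalized arrays and summarised probes was not given in the sources used here. Probe sets were named through the platform annotation, 21789 with 1 symbol, 1621 with several and 5443 with none. The brightest probe set over 6 arrays stood for a gene.

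The 23410 probe sets with a gene were tested with limma 3.58.1 (lmFit and eBayes in R 4.3.3) on 2 group means. Tests were two-sided, with Benjamini-Hochberg adjustment and a threshold of 0.05. The same fit was also run on simulated arrays that used the means and SDs of these probe sets. The median SE of a difference was 0.11, and the number of arrays limits the precision. An exact test of 3 against 3 cannot give a p under 0.1, so none was run. Levels of different probe sets were compared only to rank them by signal, to choose the brightest for a gene and to sum or average marker genes. Named list genes were up to 4 called members with the largest change, or the 2 with the smallest p. The 10 genes, lists, rules and alternatives were chosen with earlier results of these data known. List genes with no probe set of their own were left out of the expression results but not of the promoter search. Promoter windows were found by the listed symbol alone, so a gene with a window under another symbol would be missed.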

Additional observations from a re-analysis of the deposited data

How the results depend on the processing

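The 10 genes gave 0 calls under each alternative but 1: without WT array 3 the count was 1, Trib3 (0 to 1 over the fits without 1 array). In that fit 8.31% of all probe sets passed, against 5.79% in the main fit. Of 168 combinations of gene and alternative, 157 kept the sign of the difference; Asns was not tested without dim probe sets. Ddit3 changed sign after quantile normalization (0.0097, also without dim probe sets, and 0.11 without KO array 2), Asns with array weights (0.020), and Mthfd2 after median centring (-0.090) and with array weights (-0.067). Without 1 array, Ddit3 ran from -0.18 to 0.041, Asns from -0.52 to 0.082 and Mthfd2 from -0.093 to 0.11. The causes were not tested.

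Calls of the other lists were few and moved, and so did the share of all probe sets called (5.79% in the main fit). It was 4% after quantile and 4.36% after cyclic loess normalization, 8.8% after median centring and 4.21% with all probe sets. It was 8.11% with an intensity trend and robust prior, 9.76% with array weights and 15.7% without dim probe sets. With quantile normalization it was 11% without dim probe sets and 1.87% without KO array 2. Without 1 array it ran from 2.02% to 8.31%. The stress response list (7 calls) had 3 after quantile normalization, 4 after cyclic loess normalization or with all probe sets of the table tested, 5 after median centring or quantile normalization without dim probe sets, 8 with an intensity trend and robust prior, 9 without dim probe sets, 10 with array weights, 2 with quantile normalization without KO array 2 and 1 to 7 without 1 array. The tRNA synthetases (0) had 1 after median centring or without dim probe sets. The ER list (1) had 0 after quantile normalization (with or without dim probe sets or KO array 2) or cyclic loess normalization, with all probe sets, with array weights and without any 1 array, and 2 with an intensity trend and robust prior. The one-carbon list (1) had 0 after quantile (also without KO array 2) or cyclic loess normalization, 2 after median centring, without dim probe sets or with array weights, 3 with the trend and 0 to 1 without 1 array. The purine list (2) had 1 after quantile (also without dim probe sets) or cyclic loess normalization and 0 with quantile normalization without KO array 2. It had 3 after median centring, without dim probe sets or with the trend, 4 with array weights and 0 to 4 without 1 array. The regulators (2) had 1 after quantile (also without dim probe sets) or cyclic loess normalization and with all probe sets. They had 3 without dim probe sets, with the trend, with array weights or with quantile normalization without KO array 2. There were 4 after median centring and 1 to 2 without 1 array.

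The labels do not say whether arrays of the same number pair. Same-number correlations of deviations from the group means were 0.25, -0.07 and -0.03, and different-number ones ran from -0.34 to 0.32. These few correlations cannot decide it, since deviations from a mean of 3 arrays are not independent. With the replicate block, the 10 genes had 0 calls, the stress list 4, all lower, the one-carbon list 2, the purine list 1 and the regulators 1, and all probe sets 1162 against 1355 without it. Ppp1r15a, Stc2, Slc1a4 and Mknk2, the 4 rises of the stress list, did not pass with the block (limma adjusted p 0.065, 0.051, 0.068 and 0.067), nor did Pfas (0.065) and Mlxip (0.067).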
